A study of Mus musculus with 12 samples.

Results

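MIN6 cells, an insulin-secreting line derived from a mouse beta-cell tumour, were examined for the 10 core circadian clock genes Clock, Arntl, Per1, Per2, Per3, Cry1, Cry2, Nr1d1, Nr1d2 and Dbp. The members were the rows of the deposited tables that carry these gene names, 10 of 54022 genes, and all 10 were found in both the count table and the FPKM table. All groups were wild-type MIN6 cells. They received vehicle or 100 nM trimethylamine N-oxide (TMAO), a circulating metabolite that the liver makes from trimethylamine of the gut flora, for 18 h, followed by low (2.8 mM) or high (16.8 mM) glucose. Each of the 4 conditions (low glucose with vehicle, low glucose with TMAO, high glucose with vehicle, high glucose with TMAO) held 3 libraries that the submitters call biological replicates, 12 in all. MIN6 is a single transformed line, so the libraries are replicate cultures of that line and not of animals. Every library was taken at a single time point, so levels were measured and rhythms were not.

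The clock is a transcriptional feedback loop found in most cells, beta cells included. CLOCK and BMAL1 (encoded by Arntl) bind E-boxes and switch on the Per and Cry genes, whose proteins return to the nucleus and repress CLOCK and BMAL1. A second loop runs through the nuclear receptors REV-ERBα (Nr1d1) and REV-ERBβ (Nr1d2), which repress Arntl, and DBP is a transcription factor that carries the rhythm to output genes through D-boxes. Per1 and Per2 also respond within a short time to cAMP and calcium signals through CREB, which is one way in which the clock is set by outside cues. In islets the clock is known to shape insulin secretion.

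High against low glucose changed a few of these genes beyond the replicate error. Per1 more than doubled and Per2 rose by less, both with vehicle and with TMAO. Nr1d1 fell in both, to 0.817 and 0.830 of its low-glucose level. Dbp was at 0.844 of its low-glucose level with vehicle (adjusted p = 0.105) and fell to 0.822 with TMAO (adjusted p = 0.0434), and the interaction, -0.04 on the log2 scale, was not called. The calls of Nr1d1 and of Dbp with TMAO were lost in some fits that left out a library and in limma. With a library left out, the log2 fold changes kept their sign. They ran from -0.37 to -0.22 (Nr1d1 with vehicle), -0.31 to -0.20 (Nr1d1 with TMAO) and -0.39 to -0.23 (Dbp with TMAO). Clock, Arntl, Cry1, Cry2, Per3 and Nr1d2 did not pass the test in either. TMAO against vehicle called 0 of the 10 genes at either glucose level, beside 0.00616% of all tested genes in low and 0% in high glucose, so the count of 0 is that of the background.

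The promoter sequences of the gene that changed most, Per1, and of Cry1, a gene of the same repressor arm that did not pass the test, are shown because the letters known to bind CLOCK, BMAL1 and CREB can be read in them. They come from the RefSeq promoter table on GRCm38.p6, which held 13 starts of 9 of the 10 members. Per2 had no entry. Capitals mark the E-box CACGTG, the cAMP response element half-site TGACG and the nuclear receptor half-site AGGTCA, searched on both strands. AGGTCA on the minus strand reads TGACCT. The full cAMP response element TGACGTCA, which contains the half-site, and the D-box TTATGTAA were searched as well. The search covered the table's windows from 250 bases before to 50 after each start. Each printed run holds the 250 bases before an annotated start, read 5′ to 3′ on the strand of the gene. The first start of Per1 follows chr11:69098699-69098948 (plus strand), the second follows chr11:69099902-69100151 (plus strand), and the start of Cry1 follows chr10:85185055-85185304 (minus strand).
Per1 start 1: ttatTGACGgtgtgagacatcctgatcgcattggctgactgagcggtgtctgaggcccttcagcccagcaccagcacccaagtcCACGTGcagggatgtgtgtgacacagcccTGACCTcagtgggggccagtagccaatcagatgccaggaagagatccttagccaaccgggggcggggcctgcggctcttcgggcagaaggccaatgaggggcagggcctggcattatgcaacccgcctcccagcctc
Per1 start 2: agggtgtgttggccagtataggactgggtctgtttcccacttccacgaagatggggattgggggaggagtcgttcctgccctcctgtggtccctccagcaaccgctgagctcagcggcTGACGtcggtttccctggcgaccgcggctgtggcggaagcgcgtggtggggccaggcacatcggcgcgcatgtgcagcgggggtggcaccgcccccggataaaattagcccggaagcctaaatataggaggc
Cry1: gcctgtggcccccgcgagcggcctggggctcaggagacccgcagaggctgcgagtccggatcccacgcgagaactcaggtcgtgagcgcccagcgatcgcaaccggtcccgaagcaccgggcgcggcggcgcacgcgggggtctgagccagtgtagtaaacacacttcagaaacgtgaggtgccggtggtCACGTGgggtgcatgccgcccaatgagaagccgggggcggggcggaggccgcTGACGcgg
Before the first Per1 start, TGACG lay at -246, CACGTG at -166 and TGACCT at -137 (first base of the site, counted from the start). Before the second, TGACG lay at -132. Cry1 held the same E-box and half-site letters, at -60 and -8. Per3 held 2 copies of the D-box, at -205 and -158, and none of the other motifs. Cry2 held TGACG on the minus strand at -209, Nr1d2 held AGGTCA at -77, 1 of the 3 Clock starts held it on the minus strand at -119, and 1 of the 2 Arntl starts held it at 32 after the start. None of these motifs was found in the windows of Nr1d1 and Dbp. Of all 32851 promoter windows of the table, also 250 bases before to 50 after a start, 7.15% held CACGTG, 20.8% TGACG, 1.79% TGACGTCA, 0.938% TTATGTAA and 16.3% AGGTCA. These matches describe the letters in a short window.

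Expression of the 10 genes was measured as counts of fragments per gene and as FPKM, which is the count scaled to the length of the gene and to the number of counted fragments in the library. The libraries held between 16793162 and 22340542 counted fragments, and the member with the fewest counts in a library, Cry1, had 308. Of the 54022 genes, 16222 passed edgeR's filter on low counts and were tested, all 10 members among them. Levels are compared between genes on the FPKM scale only. The 9 beta-cell markers reported (Ins1, Ins2, Pdx1, Nkx6-1, Mafa, Neurod1, Iapp, Slc2a2 and G6pc2) were all present, at a summed 39660 to 47193 FPKM per library. Markers of exocrine cells (3 genes) summed to at most 0.0306 FPKM and those of fibroblasts, endothelium and immune cells (3 genes) to at most 0.545 FPKM. The 5 genes of other islet cells summed to 200.7 to 218.4 FPKM in low glucose and 224.2 to 229.6 FPKM in high glucose, with 3 of the 5 under 1 FPKM in every library. The part of the latter shift in the results below was not tested. In bulk RNA, fewer cells that express a gene and less RNA per cell cannot be told apart.

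In low glucose with vehicle the order of the levels ran from Nr1d2 (37.5 ± 1.58 FPKM, mean ± SD, n = 3 here and below) through Nr1d1 (25.8 ± 1.68), Cry2 (22.6 ± 0.451), Dbp (12.3 ± 0.495), Clock (11.2 ± 0.632), Per1 (9.14 ± 0.546), Cry1 (6.20 ± 0.274), Per2 (4.38 ± 0.231) and Per3 (3.99 ± 0.402) to Arntl (2.84 ± 0.171). In this condition Per2 and Per3 were the only neighbours whose libraries overlapped. The REV-ERB genes thus stood at the top and the activator Arntl at the bottom. Averaged over the 12 libraries, 90.9% of the tested genes lay at or below Nr1d2 and 37.6% at or below Arntl. In high glucose with vehicle Per1 moved from the sixth place to the third, at 21.3 ± 0.714 FPKM, where its libraries overlapped those of Nr1d1 (21.1 ± 2.13). Clock and Dbp, and Cry1 and Per2, overlapped there too. In high glucose with TMAO the libraries of Cry2, Nr1d1 and Per1 ran into each other as neighbours, as did those of Clock and Dbp and of Per2 and Cry1. In all 4 conditions Nr1d2 was the highest of the 10 and Arntl the lowest, with libraries apart from those of their neighbours. Clock exceeded Arntl by a ratio of 3.96 ± 0.170 in low glucose with vehicle, 3.76 ± 0.241 in low glucose with TMAO, 3.74 ± 0.474 in high glucose with vehicle and 3.85 ± 0.402 in high glucose with TMAO.

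**Figure D1:**
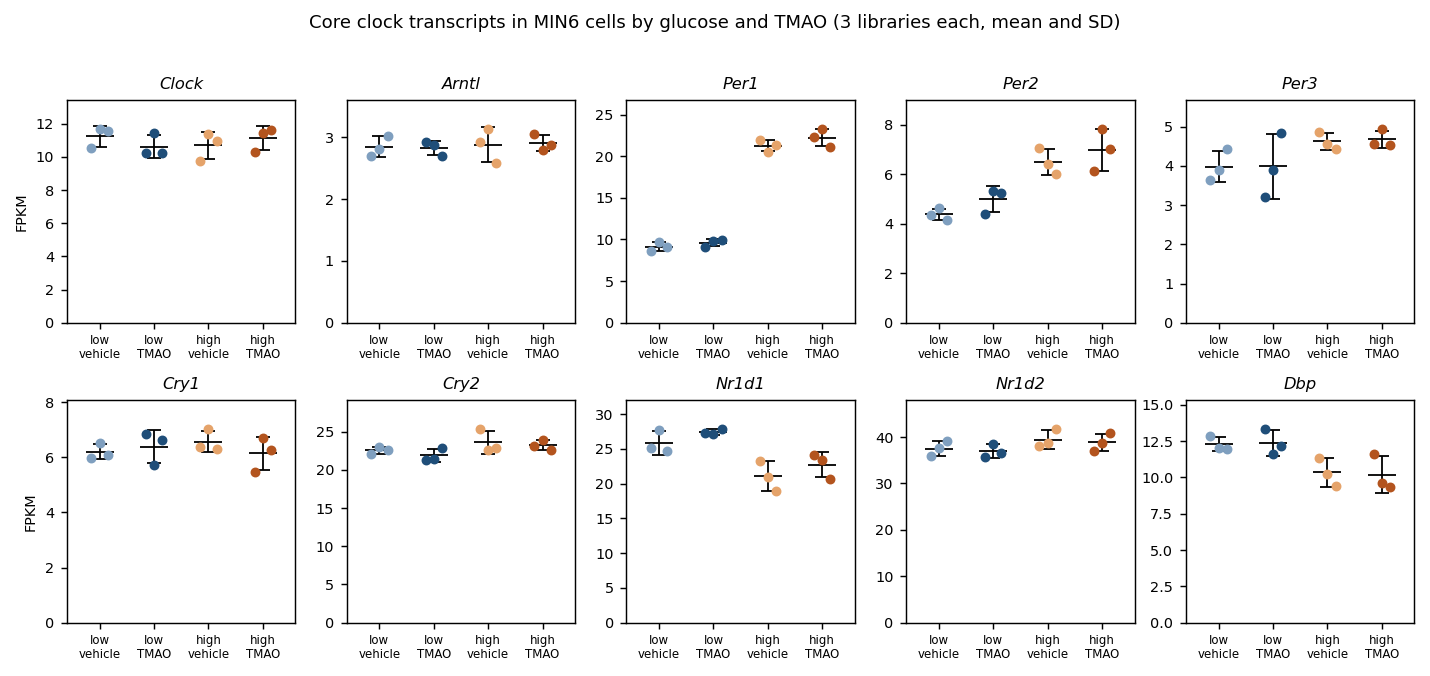
FPKM of the 10 core clock genes (1 panel each, y axes from 0) in the 4 conditions (x axis: glucose level above, treatment below). Points are single libraries, horizontal bars the mean and whiskers the SD of 3 libraries; the high-glucose libraries of Per1 lie between 20.5 and 23.2 FPKM, above all low-glucose libraries, which lie between 8.65 and 9.90 FPKM.

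The first question was how glucose changed the clock genes without TMAO. In vehicle-treated cells, high against low glucose called 3 of the 10 members at an adjusted p under 0.05, 2 higher (Per1, Per2) and 1 lower (Nr1d1), while it called 3.3% of the 16222 tested genes. The median log2 fold change was 0.07 over the members and 0.0021 over all tested genes. The FPKM of the 3 and 3 libraries did not overlap for 5 of the 10 members (Per1, Per2 and Per3 higher, Nr1d1 and Dbp lower), and for 18.9% of all tested genes. In TMAO-treated cells, 4 of the 10 members were called, 2 higher (Per1, Per2) and 2 lower (Nr1d1, Dbp), beside 3.64% of all tested genes. The median log2 fold change there was 0.07 over the members and 0.0012 over all tested genes. Libraries did not overlap for 3 of the 10 (Per1, Per2, Nr1d1), beside 18.6% of all tested genes. All adjusted p-values are Benjamini-Hochberg values over the 16222 genes from edgeR's quasi-likelihood test unless another test is named. When the glucose difference was averaged over both treatments, a contrast added after the data were seen, 4 of the 10 were called (Per1, Per2, Nr1d1, Dbp), beside 8.19% of all tested genes.

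Neither activator passed the test for glucose. Clock (ENSMUSG00000029238, chr5:76209868-76304792, minus strand, mm10), which encodes the histone acetyltransferase partner of BMAL1, lay between 9.77 and 11.7 FPKM over the 12 libraries. Its log2 fold change for high against low glucose was -0.07 (95% CI -0.19 to 0.06) with vehicle and 0.07 (-0.05 to 0.19) with TMAO. Arntl (ENSMUSG00000055116, chr7:113207465-113314126, plus strand) lay between 2.58 and 3.13 FPKM, with log2 fold changes of 0.02 (-0.14 to 0.19) and 0.04 (-0.12 to 0.20). For both genes the conditions overlapped. These intervals hold changes of at most 0.20 on the log2 scale in either direction.

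Per1 (ENSMUSG00000020893, chr11:69095217-69109960, plus strand) encodes PER1, the period protein whose gene is known as an immediate responder to cAMP and calcium. Its FPKM was 8.65, 9.73 and 9.04 in low glucose with vehicle and 21.9, 20.5 and 21.4 in high glucose with vehicle. With TMAO it was 9.14, 9.82 and 9.90 in low glucose and 22.3, 23.2 and 21.2 in high glucose. Every high-glucose library exceeded every low-glucose library by more than the whole spread within a condition. Counts behind these values ran from 927 to 2933. The rise was 2.33-fold with vehicle (95% CI 2.16 to 2.52, log2 fold change 1.22 ± 0.06 SE, adjusted p = 1.21e-16) and 2.31-fold with TMAO (95% CI 2.14 to 2.50, log2 fold change 1.21 ± 0.05 SE, adjusted p = 1.49e-16). In absolute log2 change Per1 with vehicle stood above 99.4% of all tested genes. The difference between both responses, the interaction, was -0.01 on the log2 scale (95% CI -0.17 to 0.15).

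Per2 (ENSMUSG00000055866, chr1:91415982-91459324, minus strand) encodes PER2, the paralog that is needed for a lasting rhythm in most tissues. Its FPKM was 4.36, 4.62 and 4.16 in low glucose with vehicle and 7.08, 6.42 and 6.03 in high glucose with vehicle. With TMAO it was 4.40, 5.33 and 5.26 in low glucose and 6.12, 7.82 and 7.02 in high glucose. The groups did not overlap at either treatment. The rise was 1.49-fold with vehicle (95% CI 1.31 to 1.69, adjusted p = 0.000150) and 1.41-fold with TMAO (95% CI 1.24 to 1.59, adjusted p = 0.000804). The ratio of Per1 to Per2 FPKM went from 2.09 ± 0.0951 to 3.28 ± 0.235 with vehicle and from 1.93 ± 0.126 to 3.21 ± 0.373 with TMAO.

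Per3 (ENSMUSG00000028957, chr4:151003652-151044665, minus strand), the PER paralog with the smallest known role in the loop, ran from 3.63 to 4.42 FPKM in low glucose and from 4.44 to 4.87 FPKM in high glucose with vehicle, a narrow separation. With TMAO its low-glucose libraries lay at 3.21, 3.90 and 4.85 FPKM, the widest spread of the 10 genes relative to the mean, and overlapped the high-glucose ones at 4.53 to 4.93 FPKM. Its log2 fold changes were 0.22 (95% CI -0.06 to 0.49, adjusted p = 0.531) with vehicle and 0.24 (-0.04 to 0.51, adjusted p = 0.434) with TMAO. With single libraries left out, the former ran from 0.16 to 0.30 and was not called. The latter was 0.10 without the first low-glucose TMAO library (adjusted p = 0.716) and 0.40 without the third (adjusted p = 0.00440), the only one of the 6 such fits that called it.

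The cryptochromes, the partners of PER in repression, were not called for glucose. Cry1 (ENSMUSG00000020038, chr10:85131700-85185064, minus strand) lay between 5.48 and 7.03 FPKM over all libraries, and its log2 fold changes with glucose were 0.09 (95% CI -0.08 to 0.26) with vehicle and -0.05 (-0.22 to 0.12) with TMAO. Cry2 (ENSMUSG00000068742, chr2:92403646-92434043, minus strand) lay between 21.4 and 25.4 FPKM, with log2 fold changes of 0.07 (-0.03 to 0.17) and 0.09 (-0.01 to 0.19). The intervals of Cry2 leave room for a rise of up to 1.14-fold. The ratio of Per1 to Cry2 FPKM went from 0.405 ± 0.0167 to 0.903 ± 0.0349 with vehicle and from 0.439 ± 0.0164 to 0.955 ± 0.0187 with TMAO.

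Nr1d1 (ENSMUSG00000020889, chr11:98767932-98775333, minus strand) encodes REV-ERBα, a heme-binding receptor that represses Arntl. Its FPKM was 25.1, 27.8 and 24.6 in low glucose with vehicle and 23.2, 20.97 and 19.0 in high glucose with vehicle. With TMAO it was 27.3, 27.1 and 27.8 in low glucose and 24.1, 23.4 and 20.6 in high glucose. All 6 high-glucose libraries lay below all 6 low-glucose libraries. Nr1d1 fell to 0.817 of its low-glucose level with vehicle (95% CI 0.743 to 0.898, adjusted p = 0.00991) and to 0.830 with TMAO (95% CI 0.755 to 0.912, adjusted p = 0.0188). The call was lost in 2 of the 6 fits that left out a library with vehicle and in 3 of 6 with TMAO. The log2 fold change kept its sign in all of them, from -0.37 to -0.22 with vehicle and from -0.31 to -0.20 with TMAO. With vehicle the adjusted p was 0.110 without the second low-glucose library (log2 fold change -0.24) and 0.107 without the third high-glucose library (-0.22). With TMAO it was 0.0629 without the first (-0.27) and 0.0762 without the third low-glucose library (-0.26), and 0.162 without the third high-glucose library (-0.20). In limma on log2(FPKM + 1) it was 0.0689 with vehicle and 0.0975 with TMAO. Averaged over both treatments, the log2 fold change of Nr1d1 was -0.28 (95% CI -0.38 to -0.18, adjusted p = 0.000172 in edgeR).

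Nr1d2 (ENSMUSG00000021775, chr14:18204054-18239127, minus strand), which encodes REV-ERBβ, was not called for glucose. Its libraries lay between 35.6 and 41.7 FPKM and overlapped between all conditions. Its log2 fold change with glucose was 0.07 (95% CI -0.03 to 0.17, adjusted p = 0.573) with vehicle and 0.07 (-0.03 to 0.17, adjusted p = 0.526) with TMAO. The ratio of Nr1d1 to Nr1d2 FPKM was 0.690 ± 0.0553 in low and 0.537 ± 0.0784 in high glucose with vehicle, and 0.744 ± 0.0357 and 0.587 ± 0.0747 with TMAO.

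Dbp (ENSMUSG00000059824, chr7:45705088-45710203, plus strand) encodes the D-box activator that is a direct target of CLOCK and BMAL1. Its FPKM was 12.9, 12.1 and 11.98 in low glucose with vehicle and 11.4, 10.3 and 9.43 in high glucose with vehicle. With TMAO it was 13.3, 11.6 and 12.2 in low glucose and 11.6, 9.60 and 9.33 in high glucose. The vehicle groups did not overlap and the TMAO groups touched. The log2 fold change was -0.25 (95% CI -0.41 to -0.08, adjusted p = 0.105) with vehicle and -0.28 (-0.45 to -0.12, adjusted p = 0.0434) with TMAO. The interaction was -0.04 (95% CI -0.27 to 0.19, adjusted p = 1.00), so the response was not shown to differ between treatments. The call with TMAO was lost without the first or the third low-glucose library (log2 fold change -0.23 and -0.29, adjusted p = 0.232 and 0.0855) and without the second or the third high-glucose library (-0.24 and -0.23, adjusted p = 0.222 and 0.270). The DESeq2 Wald test gave -0.28 with an adjusted p of 0.0513, and limma on log2(FPKM + 1) gave -0.26 with 0.146. With vehicle, Dbp was called without the first high-glucose library (-0.32, adjusted p = 0.0334) and when only the 6 libraries of the comparison were used (adjusted p = 0.0479). It was also called with vehicle with the replicate number as a block (log2 fold change -0.25, adjusted p = 0.0178). Averaged over both treatments its log2 fold change was -0.26 (95% CI -0.38 to -0.15, adjusted p = 0.00230).

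Reads of Nr1d1 and Dbp cannot be assigned to their strand with certainty. The paper's library methods name no step that marks the strand, and the strand setting of the counting is not given in the sources used here. Nr1d1 shares 263 exonic bases (8.55% of its exons) with Thra on the opposite strand, and Dbp shares 539 (18.0%) with Sphk2. Thra was at -0.0024 with vehicle and -0.02 with TMAO on the log2 scale for high against low glucose, and Sphk2 at -0.01 and -0.14. Neither passed the test (lowest adjusted p = 0.197, Sphk2 with TMAO). Cry2 shares 4.67% of its exonic bases with D930015M05Rik and Arntl 0.439% with Gm45355, whose mean counts were 75.2 and 0.75.

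**Figure D2:**
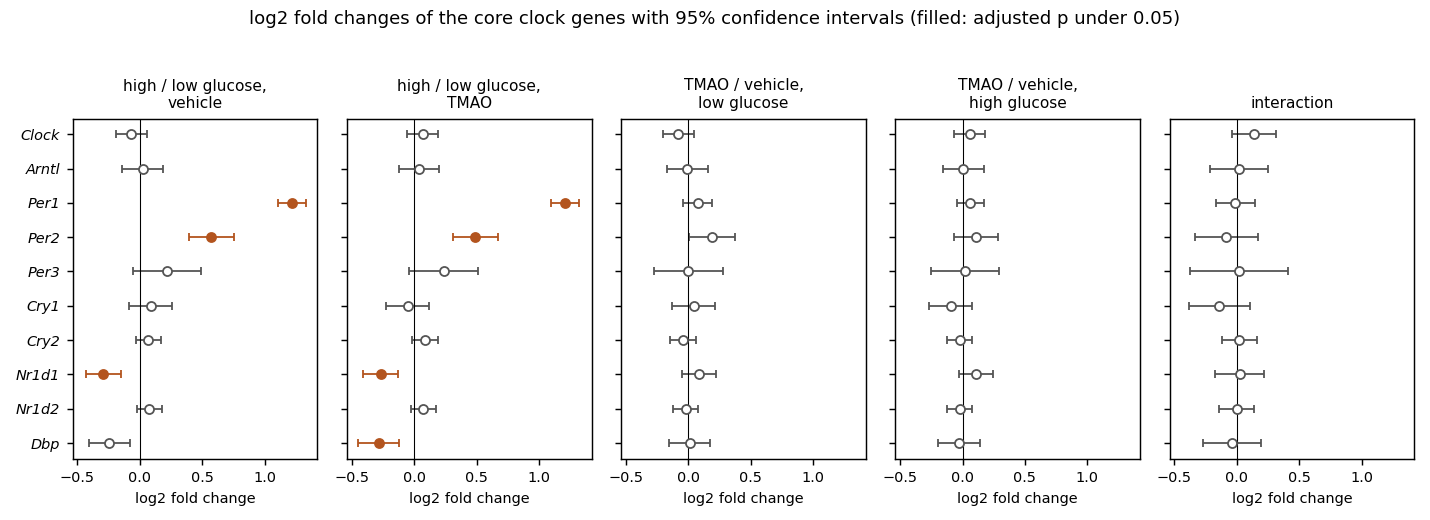
Log2 fold changes (x axis, points) with 95% confidence intervals (bars) of the 10 core clock genes (rows) in the 5 comparisons (panels); filled points have an edgeR adjusted p under 0.05. Filled points appear in the glucose panels only, with Per1 at 1.22 and 1.21, and in the TMAO and interaction panels all points lie between -0.14 and 0.19.

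The second question was whether TMAO changed the clock genes. In low glucose TMAO called 0 of the 10 members and 1 of all tested genes (0.00616%). In high glucose it called 0 of the 10 and 0 genes in all (0%), and the interaction of TMAO and glucose called 0 of the 10 and 0 genes in all (0%). Libraries of the treatments did not overlap for 0 of the 10 members at either glucose level, beside 6.34% of all tested genes in low and 11.2% in high glucose, and with 10 genes a count of 0 is near those shares. At an unadjusted p under 0.05 there was 1 member in edgeR in low glucose, Per2 (1.14-fold, 95% CI 1.00 to 1.30, adjusted p = 1.00), with 0 in high glucose and 0 for the interaction, beside 2.2%, 5.35% and 3.36% of all tested genes. The DESeq2 Wald test also called 0 of the 10 in these 3 comparisons, beside 0.00616%, 0.0185% and 0.00616% of all tested genes, and limma on log2(FPKM + 1) called 0 of the 10 and 0% of all tested genes in each. The smallest unadjusted p for TMAO in high glucose was that of Nr1d1 (1.08-fold, 95% CI 0.980 to 1.19, adjusted p = 0.922 in edgeR).

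The intervals give the range of changes that the data allow for each gene. In low glucose the 95% intervals of the 10 genes lay between 0.825-fold (Per3) and 1.30-fold (Per2), and in high glucose between 0.830-fold (Cry1) and 1.22-fold (Per3). Averaged over both glucose levels, a contrast added after the data were seen, TMAO called 0 of the 10 and 0 genes in all (0%), and the intervals lay between 0.879-fold (Per3) and 1.21-fold (Per2). In that average Per2 was at 1.11-fold (95% CI 1.01 to 1.21) and Nr1d1 at 1.07-fold (95% CI 1.00 to 1.14), each with an adjusted p of 1.00 in edgeR. For the interaction the intervals lay between 0.766-fold (Cry1) and 1.33-fold (Per3) and were narrowest for Nr1d2 (-0.14 to 0.14 on the log2 scale). The comparisons share libraries. Clock was at -0.08 (95% CI -0.20 to 0.04) with TMAO in low glucose and at 0.06 (-0.07 to 0.18) in high glucose, and its interaction, 0.14 (-0.04 to 0.31), had the smallest unadjusted p of the 10 in edgeR, with an adjusted p of 1.00.

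The wider clock network was read from a list of 23 further genes, of which 20 were tested. In vehicle-treated cells 1 of the 20 was called for high against low glucose (3.3% of all tested genes) and in TMAO-treated cells 1 of the 20 (3.64% of all tested genes), both higher. Averaged over both treatments, a contrast added after the data were seen, 4 of the 20 were called, 3 higher and 1 lower, beside 8.19% of all tested genes. The median log2 fold change of the 20 was 0.02 with vehicle and 0.02 with TMAO, beside 0.0021 and 0.0012 over all tested genes. Bhlhe40, which encodes the E-box repressor DEC1, was at 3.999, 4.06 and 3.43 FPKM in low and 5.41, 5.31 and 4.88 FPKM in high glucose with vehicle. It rose 1.36-fold (log2 fold change 0.45 ± 0.08 SE, adjusted p = 0.000580) and was called in each of the 6 fits that left out a library of the comparison. With TMAO its log2 fold change was 0.26 ± 0.08 SE (adjusted p = 0.0632), and the interaction, -0.18 ± 0.11 SE, was not called. The labels tie the replicate numbers to no culture or day. With the number as a block, Bhlhe40 was called with TMAO (0.26, adjusted p = 0.0243 in edgeR), as was Rora (0.19, adjusted p = 0.0337). Usp2, which encodes a clock-driven deubiquitinase, was at 3.52, 3.63 and 3.23 FPKM in low and 3.92, 4.26 and 4.51 FPKM in high glucose with TMAO. It rose 1.22-fold there (log2 fold change 0.29 ± 0.08 SE, adjusted p = 0.0431), and with vehicle its log2 fold change was 0.22 ± 0.08 SE (adjusted p = 0.211). The call of Usp2 was lost without the first or the third low-glucose library (log2 fold change 0.31 and 0.25, adjusted p = 0.0932 and 0.190) and without the second or the third high-glucose library (0.29 and 0.25, adjusted p = 0.134 and 0.233). The averaged contrast called these 2 genes (0.35 and 0.25 on the log2 scale), and with them Rora, which encodes an activator of Arntl (0.17 ± 0.05 SE, adjusted p = 0.0209) and Tef, a PAR bZIP paralog of Dbp (-0.11 ± 0.03 SE, adjusted p = 0.0170).

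By role, 0 of the 2 tested ROR activators of Arntl, 0 of the 3 PAR bZIP genes and their antagonist, 1 of the 3 E-box repressors, 0 of the 6 kinases, ubiquitin ligase subunits and partners of PER and CRY, and 0 of the 5 outputs were called with vehicle, beside 3.3% of all tested genes. With TMAO the counts were 0, 0, 0, 0 and 1, beside 3.64%. In groups of 2 to 6 genes, such counts do not set a role apart from that background. Arntl2, the tested paralog of the activators, had between 7 and 22 counts in a library and a log2 fold change of -0.53 ± 0.43 SE with vehicle. Npas2, Rorb and Fbxl21 did not pass the filter on low counts, with at most 3 counts in any library, and Fbxl21 had 0 counts in all 12. TMAO called 0 of the 20 in low glucose, 0 in high glucose and 0 for the interaction in edgeR, beside 0.00616%, 0% and 0% of all tested genes, and 0 in each in the DESeq2 Wald test, beside 0.00616%, 0.0185% and 0.00616%. At an unadjusted p under 0.05 in edgeR there were 0, 1 and 1 of the 20, beside 2.2%, 5.35% and 3.36% of all tested genes.

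**Figure D3:**
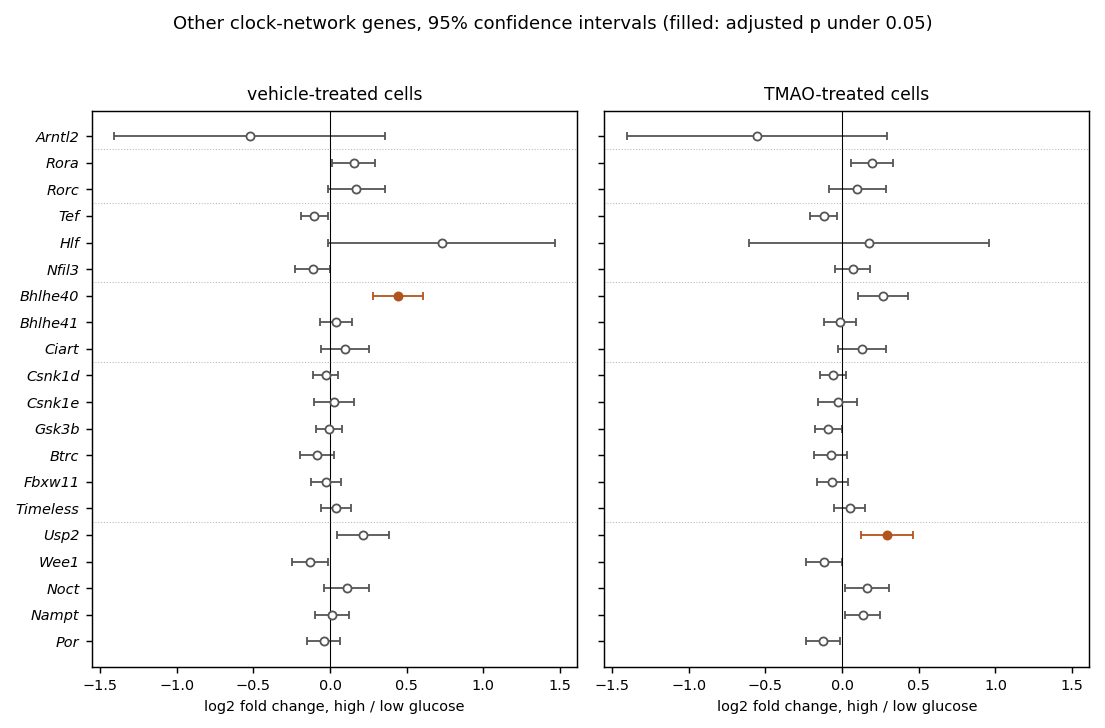
Log2 fold changes for high against low glucose (x axis, points) with 95% confidence intervals (bars) of the 20 tested genes of the wider clock network (rows, dotted lines between roles) in vehicle-treated (left) and TMAO-treated cells (right). The filled points, adjusted p under 0.05 in edgeR, are Bhlhe40 at 0.45 on the left and Usp2 at 0.29 on the right.

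The genes nearest to Per1 in pattern included early-response genes. Of all tested genes, those with the highest Pearson correlation with Per1 in log2 library-scaled counts over the 12 libraries were Sik1 (r = 0.997), Midn (0.995) and Dusp1 (0.994). The 12 points fall into a low and a high glucose cluster, which sets most of such an r, and they share libraries and depth. The 7 early-response genes Sik1, Fos, Egr1, Nr4a1, Crem, Junb and Dusp1 belong to the cAMP and calcium responsive program known to act on Per1 too. The list was chosen with earlier results of these data known, so its count is a description, and a cause shared with Per1 was not tested. Called higher were 7 of 7 with vehicle (3.3% of all tested genes called) and 7 of 7 with TMAO (3.64%). Their log2 fold changes ran from 1.05 to 3.77 with a median of 2.59 with vehicle, and from 1.02 to 3.79 with a median of 2.09 with TMAO, so the 1.22 and 1.21 of Per1 lay toward the lower end. For TMAO, 1 of the 7 was called in low glucose (0.00616% of all tested genes) and 0 in high glucose (0%), with medians of 0.14 and 0.10. Nearest to Per2 were Hs3st1 (r = 0.951), Armcx4 (0.950) and Exph5 (0.945), nearest to Nr1d1 were Osbpl5 (0.942), Tbx3 (0.934) and Tmem108 (0.932), and nearest to Dbp were Plk1 (0.941), Tubb5 (0.941) and Dhx38 (0.940).

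Among the members, Dbp and Nr1d2 ran against each other within conditions. In all 4 conditions the order of the 3 libraries by Dbp was the reverse of their order by Nr1d2. In high glucose with vehicle Nr1d2 was at 38.0, 38.6 and 41.7 FPKM where Dbp was at 11.4, 10.3 and 9.43, and in low glucose with TMAO at 35.6, 38.6 and 36.6 where Dbp was at 13.3, 11.6 and 12.2. With the condition means removed, their r over the 12 libraries was -0.88 on the log2 scale, that of Clock and Dbp was -0.84 and that of Clock and Nr1d2 was 0.75, given as a description of values that share libraries. These pairs were picked as the most extreme of 45 pairs of members, of which 10 had an r over 0.5 and 3 an r under -0.5. The third of the latter was Nr1d1 with Nr1d2 (-0.68), while Nr1d1 and Dbp had an r of 0.65. The library with replicate number 1 was the lowest of its condition for Clock and Nr1d2 and the highest for Dbp in all 4 conditions. Over all tested genes, that library was the lowest in all 4 for 3.31% and the highest in all 4 for 3.13%, against 1.49% to 1.95% for the other replicate numbers. The values of Dbp without single libraries and with the replicate number as a block stand with its glucose change above.

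**Figure D4:**
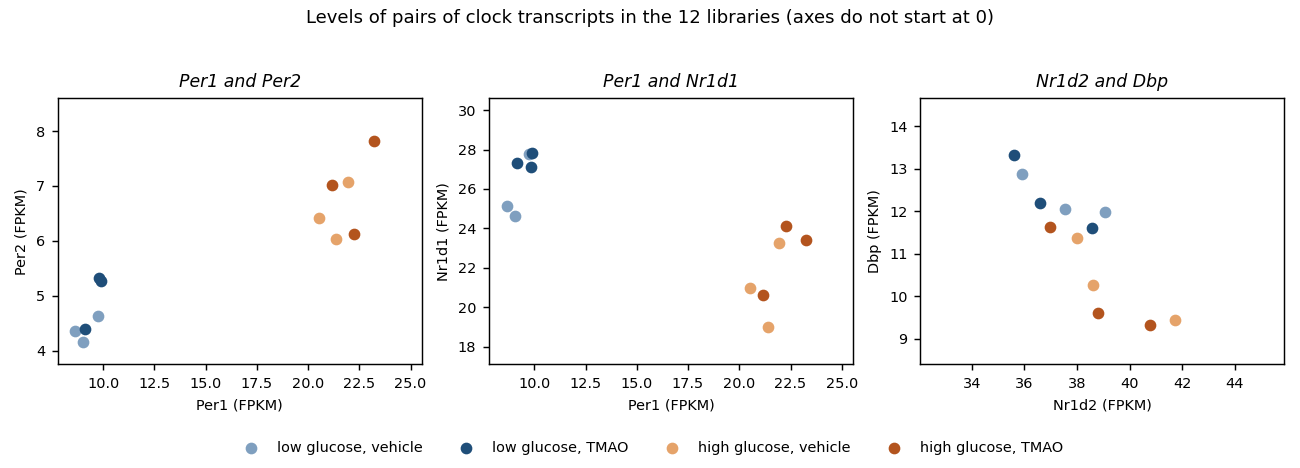
FPKM of Per1 against Per2, Per1 against Nr1d1 and Nr1d2 against Dbp in the 12 libraries (1 point each, coloured by condition, axes not from 0). Low and high glucose libraries separate on Per1, with Per2 higher and Nr1d1 lower in high glucose, and Dbp declines as Nr1d2 rises within each condition.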

How the data were processed

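RNA-seq was analysed for MIN6 cells (vehicle or 100 nM TMAO for 18 h, low or high glucose, 3 libraries per condition). Groups and replicate numbers came from the sample labels. The glucose concentrations are those of the study's scheme of the experiment, which shows a fast of 1 h before them and no duration of stimulation. Libraries were made with the NEBNext Ultra kit. The authors deposited counts (fragments per gene, not normalized) and FPKM values of the same genes. The submitters' processing notes name HISAT2 2.0.5, featureCounts 1.5.0-p3, DESeq2 1.16.1 and build mm10. The deposited FPKM equal count over gene length and over a library total that differs from the summed counts by at most 1.37%. No 2 libraries of a condition were as alike as draws from 1 library (median chi-square per gene 1.75 to 3.19 times that of such draws).

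Counts were tested in R 4.3.3 with edgeR 4.0.16 (filterByExpr by condition, TMM, robust quasi-likelihood F test, two-sided, 12 libraries, 4 condition means) on the whole table, and genes were called at a Benjamini-Hochberg adjusted p under 0.05. The SE is the log2 fold change over the square root of F, and 95% intervals use the moderated degrees of freedom. Alternatives were DESeq2 1.42.0 (size factors, Wald test), only the libraries compared, each library left out, a block for the replicate number, no filter, a minimum of 10 counts in all libraries, and limma 3.58.1 with pseudocounts of 1 or 0.1 on log2 FPKM, which understates changes of low genes. The contrasts averaged over treatments or glucose levels, and the network counts with a library left out, were chosen after seeing the data, as was naming the network genes called in the averaged contrast.

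The members and lists were chosen with earlier results of these data known. Named are all members, every network gene called in any of the 5 comparisons, the 3 genes most correlated with each called member, and the early-response genes as count, median and range. Overlapping genes and the order of replicate libraries were added after values were seen. Of the listed genes, 2 are not reported here. Steps were tested on simulated data. Coordinates are those of the deposited tables and equal GENCODE M21. Sequences are from RefSeq. Plots were made in Python 3.11.15 (matplotlib 3.10.9).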

Additional observations from a re-analysis of the deposited data

How the results depend on the processing

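The counts of called members for TMAO in low glucose, for TMAO in high glucose and for the interaction were 0 under every alternative run. For glucose, Per1 and Per2 were called under every alternative, with either treatment. The count of 3 with vehicle ran from 2 to 4 over the alternatives and from 2 to 4 over the fits that left out a library. The count of 4 with TMAO was 2 with limma on log2(FPKM + 1) and 2 with limma on log2(FPKM + 0.1), 3 with the DESeq2 Wald test, 5 without a filter on low counts (Per3 added), and 2 to 4 with a library left out. The count of clock-network genes for glucose with TMAO, 1, was 0 with the DESeq2 Wald test and 0 to 2 with a library left out, and for the mean over both treatments it was 4, against 1 with vehicle and 1 with TMAO. An arm left with 2 libraries is assumed to vary like the others.

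The replicate numbers are shared between conditions in the labels, which tie them to no culture or day. Same-numbered libraries had a mean correlation of deviations from the condition means of 0.033, with 2 of 18 pairs over 0.1. Differently numbered ones had a mean of -0.016. Both pairs over 0.1 joined low glucose with vehicle to low glucose with TMAO (0.21 for number 1 and 0.15 for number 3). The fit reported took no account of the numbers, and whether they mark a shared culture or batch was not tested. With the replicate block, called genes rose from 536 to 717 for glucose with vehicle and from 591 to 783 for glucose with TMAO. Members called became 4 with vehicle (Dbp added, log2 fold change -0.25, adjusted p = 0.0178 in edgeR) and 4 with TMAO, and clock-network genes with TMAO became 3 (Rora, Bhlhe40, Usp2).

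Signs turned only in changes that were not called. Per3 for TMAO in low glucose was 0.00030 in the fit reported and -0.0014 without a filter, -0.0036 with the replicate block, -0.0096 with limma on log2(FPKM + 1) and -0.014 on log2(FPKM + 0.1). The interaction of Nr1d2 was -0.0031 with at least 10 counts in every library and -0.0011 with the replicate block. With a library left out, the sign turned in 21 of 50 member changes, all on the log2 scale. For glucose with vehicle, the range was -0.043 to 0.094 (Arntl). For glucose with TMAO, the range was -0.13 to 0.021 (Cry1). For TMAO in low glucose, the range was -0.16 to 0.14 (Per3), -0.0077 to 0.12 (Cry1), -0.048 to 0.039 (Arntl), -0.053 to 0.0093 (Nr1d2), -0.047 to 0.056 (Dbp). For TMAO in high glucose, the range was -0.024 to 0.057 (Per3), -0.053 to 0.034 (Cry2), -0.064 to 0.073 (Arntl), -0.0029 to 0.11 (Clock), -0.056 to 0.020 (Nr1d2), -0.13 to 0.045 (Dbp). For the interaction, the range was -0.059 to 0.029 (Per1), -0.18 to 0.0014 (Per2), -0.12 to 0.18 (Per3), -0.011 to 0.076 (Cry2), -0.055 to 0.082 (Arntl), -0.045 to 0.099 (Nr1d1), -0.034 to 0.042 (Nr1d2), -0.14 to 0.034 (Dbp). The causes were not tested. With 3 libraries per condition, a change that missed the threshold is limited by its interval only.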
